A study of Homo sapiens with 4 samples.

Results

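The replication-dependent histone H2B genes were examined in Jurkat cells, a human T-cell acute lymphoblastic leukemia line. A set of 10 was taken, by Entrez gene number, from the annotation of the array, namely H2BC4, H2BC5, H2BC7, H2BC8, H2BC9, H2BC11, H2BC12, H2BC14, H2BC17 and H2BC21, whose older names are of the form HIST1H2B, or HIST2H2BE for H2BC21. A probe set, the group of short probes that gives 1 value on this array, was used when it was annotated to 1 of these genes or shared by H2B genes alone, and 14 of the 54613 tested probe sets met this rule. Of the 14, 9 named 1 gene and 5 were shared. H2BC7 and H2BC8 were read by shared probe sets alone. In all, 19775 gene symbols had at least 1 probe set that named no other gene.

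The siLEF1 cells had received 100 nM of a pool of siRNAs against LEF1, a transcription factor of the Wnt pathway. The siNT cells, the controls, had received 100 nM of a pool of non-targeting siRNAs, and RNA of both was taken 24 h after transfection with the same lipid reagent. Each group had 2 arrays, which the labels call biological replicates and number 1 and 2. All values come from 1 cell line and from RNA of whole cultures. Fewer cells that transcribe H2B genes and less labelled H2B mRNA per cell can therefore not be told apart.

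H2B pairs with H2A, and a pair of such dimers joins the H3 and H4 tetramer to form the nucleosome. Cells keep many copies of the H2B gene and transcribe most of them in S phase, when newly made DNA has to be packed. Most of the resulting mRNAs end in a stem-loop in place of a poly(A) tail, although several H2B genes also give polyadenylated transcripts. The 3' IVT labelling kit used here copies RNA from an oligo(dT) primer, so that an H2B signal on these arrays is mostly that of polyadenylated molecules. Total H2B mRNA and the polyadenylated share of it were not measured. H2BC4, H2BC6, H2BC7, H2BC8 and H2BC10 encode the same protein and the remaining genes encode close relatives, so probes designed for 1 H2B gene can bind mRNA of another. Among the 14 probe sets, IDs that end in _x_at mark those that the manufacturer lists as open to such cross-binding.

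Promoters of H2B genes are known for an octamer, ATTTGCAT, which the factor POU2F1 (OCT1) binds in S phase. Its place in the promoters was therefore looked up in the RefSeq windows of 250 bases before and 50 after the gene start (GRCh38.p14, 1 start per gene), which were found for all 10 genes. The octamer, searched on both strands, was present in 9 of the 10 windows and in 1.8% of 27305 windows of all genes. In 6 of them its first base lay at positions -49 to -46, counted back from the gene start. Within the last 90 bases, 3 further genes had a word that differs from the octamer by 1 base. The promoters printed here show where the word sits in the called genes H2BC17 and H2BC11, in the 4 genes of long span described further on, and in H2BC13, an H2B gene outside the 10 with no such word in this stretch. On the plus strand they are chr6:27893335-27893424 for H2BC17 and chr6:26158031-26158120 for H2BC5, and on the minus strand chr6:27146859-27146948 for H2BC12, chr6:27132796-27132885 for H2BC11, chr1:149886683-149886772 for H2BC21, chr6:26123927-26124016 for H2BC4 and chr6:27807930-27808019 for H2BC13. Each is given 5' to 3' along the gene and ends at the base before the start, with the octamer or its closest word with 1 mismatch in capitals.
H2BC12: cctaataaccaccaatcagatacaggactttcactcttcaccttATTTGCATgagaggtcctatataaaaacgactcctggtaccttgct
H2BC11: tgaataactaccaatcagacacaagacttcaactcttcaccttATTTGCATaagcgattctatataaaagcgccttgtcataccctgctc
H2BC21: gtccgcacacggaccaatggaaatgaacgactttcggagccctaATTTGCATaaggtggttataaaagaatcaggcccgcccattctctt
H2BC17: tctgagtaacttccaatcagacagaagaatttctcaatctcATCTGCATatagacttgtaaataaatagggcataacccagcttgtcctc
H2BC5: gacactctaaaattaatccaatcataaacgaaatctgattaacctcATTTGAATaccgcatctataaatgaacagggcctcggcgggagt
H2BC4: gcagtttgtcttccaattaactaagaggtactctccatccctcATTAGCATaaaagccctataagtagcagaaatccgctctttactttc
H2BC13: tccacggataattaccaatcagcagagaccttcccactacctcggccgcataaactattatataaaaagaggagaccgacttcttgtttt

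H2BC12, H2BC11 and H2BC21 carry the exact word at positions -47 to -46, while H2BC17, H2BC5 and H2BC4 carry a version with 1 mismatch close to that place. H2BC17 and H2BC4 also had an exact octamer farther out, at positions -149 and -123, that of H2BC17 on the other strand. H2BC5 was the gene without an exact octamer in the whole window. CCAAT, searched on both strands, was found in 10 of the 10 windows and in 35.7% of all windows, and on the gene strand the copy nearest to the start lay at positions -80 to -73 in each of the 10. TATAAA was found in 8 of the 10 windows and in 12% of all, and in 5 genes it lay on the gene strand close to the start, and no match of the octamer, TATA, CCAAT or E2F words overlapped one of another kind. The words TTTCGCGC and TTTGGCGC, which E2F factors bind, were found in 4 windows and in 1.18% of all. These 4 were H2BC11, H2BC12, H2BC14 and H2BC17, with the word at positions -206 to -197. CTTTGAA and its variants that end in AT, TA or TT, forms of the motif that TCF and LEF factors bind, were found on either strand in 0 of the 10 windows and in 13.9% of all windows. A match of letters is no evidence of binding, and the absence of a match in this short window says nothing about LEF1 elsewhere.

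**Figure D1:**
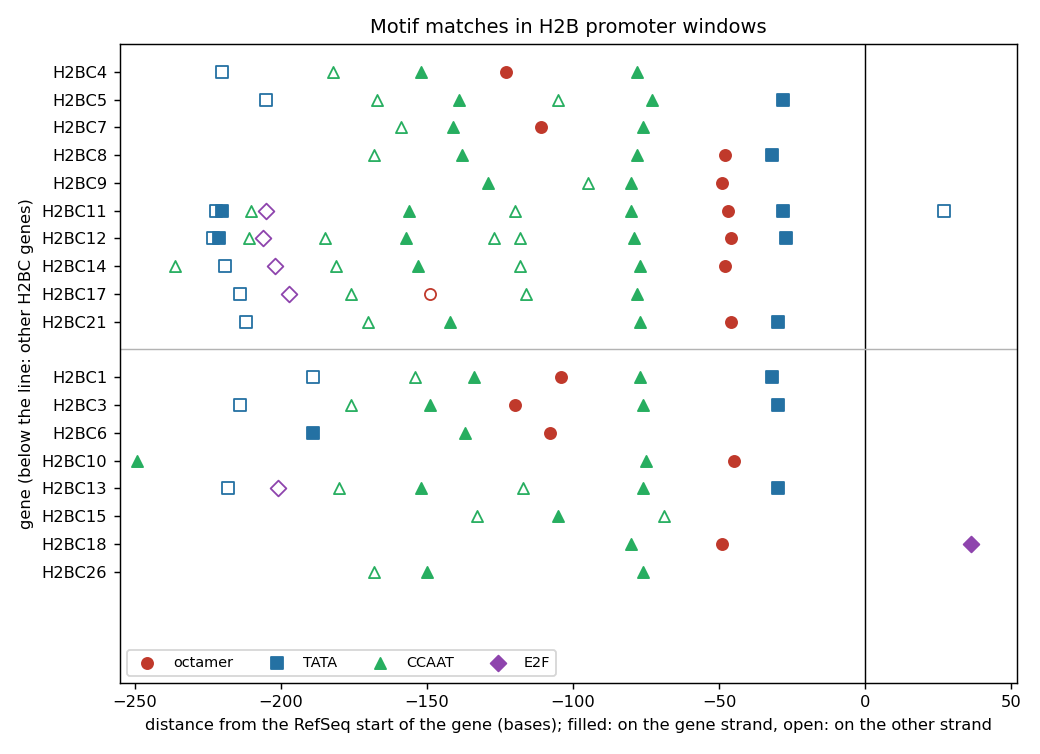
Matches of the octamer, the TATA word, the CCAAT word and the E2F words in the promoter windows of the 10 H2B genes and of 8 other H2BC genes, by the distance of the first base from the RefSeq start (horizontal axis, in bases). Filled symbols lie on the gene strand and open symbols on the other, and the octamer of 6 of the 10 genes starts at -49 to -46.

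The target of the siRNA was checked first. LEF1 read 11.24 and 11.56 on the siLEF1 arrays, against 12.30 and 11.92 on the siNT arrays in its brightest probe set, and the groups did not overlap. The difference, siLEF1 minus siNT, was -0.71 ± 0.20 on the log2 scale (standard error, limma adjusted p = 0.191), which did not pass. Of the other LEF1 probe sets, 1 gave -0.93 and 1 gave -0.19, and neither passed. Between the siNT arrays LEF1 was lower in replicate 2 than in replicate 1, by 0.38 in the brightest probe set. The arrays had medians of 4.84 to 4.85, and Pearson's r across probe sets was 0.995 for the siLEF1 pair and 0.99 for the siNT pair. It was 0.979 and 0.98 between the siLEF1 arrays and siNT replicate 2, the array that stood farthest from the rest. Between siLEF1 replicates 1 and 2 and siNT replicate 1 it was 0.988 and 0.991. On this measure siNT replicate 1 was thus about as close to the siLEF1 arrays as to siNT replicate 2. The 5' minus 3' signal of ACTB, a measure of RNA integrity and labelling, was -1.08 and -1.55 on the siLEF1 arrays, against -1.80 and -1.95 on the siNT arrays, and that of GAPDH was -0.34 and -0.32 on the siLEF1 arrays, against -0.39 and -0.65 on the siNT arrays. Of 11 T-cell markers 10, among them CD3D, CD3E, LCK and ZAP70, lay above the upper quartile of every array, against 2 of 21 markers of other lineages (EPOR and COL1A1). The summed T-cell marker signal was 17500 and 18100 on the siLEF1 arrays, against 17000 and 12800 on the siNT arrays, on the linear scale. The summed signal of the other lineages was 1340 and 1260 on the siLEF1 arrays, against 1350 and 1450 on the siNT arrays. The part of RNA integrity and of siNT replicate 2 in the H2B values below was not tested beyond the values given with each array left out.

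H2B probe sets were lower in value in siLEF1 cells throughout. In 14 of the 14 both siLEF1 arrays lay under both siNT arrays, a pattern that 21.2% of all tested probe sets showed. The median log2 fold change was -2.89, against 0.04 over all tested probe sets, and the values ran from -4.08 to -0.63. A total of 12 were over 2-fold lower, as were 2.34% of all probe sets, and 10 were over 4-fold lower, as were 0.297%. With a probe set called where its fold change passed 2 and its limma adjusted p was below 0.05, 2 of the 14 were lower and 0 higher, where all tested probe sets gave 0.183% lower and 0.0238% higher. At an unadjusted p under 0.05, 14 were lower, against 8.79% of all tested probe sets. The remaining 12 had adjusted p values of 0.0562 to 0.24 from limma. Both siLEF1 signals lay under the array median in 8 of the 14, and both siNT signals in 1. The size of the fold change in these 8 is therefore only roughly known.

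**Figure D2:**
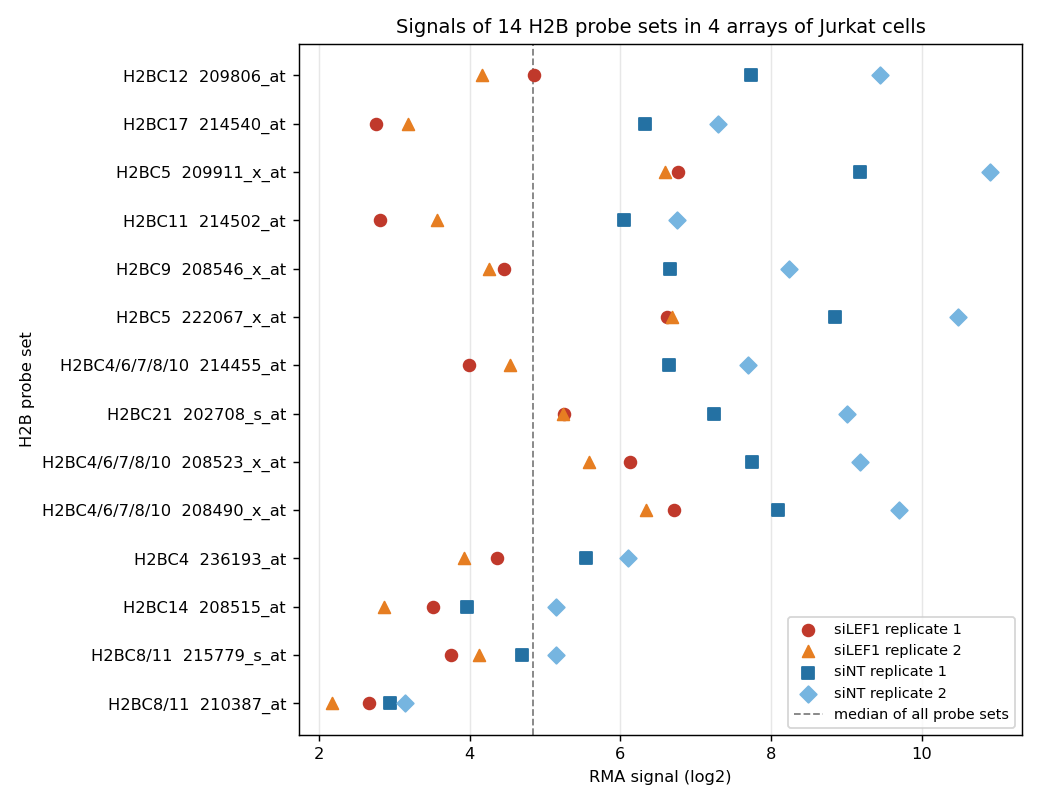
Log2 RMA signal along the horizontal axis, with a row for each of the 14 H2B probe sets and a point for each of the 4 arrays, with the median over all probe sets as a dashed line. In every row both siLEF1 arrays lie left of both siNT arrays, and the siNT arrays lie farther from each other than the siLEF1 arrays do in 12 of the 14.

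The called probe sets were those of H2BC17 and H2BC11. H2BC17 (HIST1H2BO) gave log2 signals of 2.76 and 3.19 on the siLEF1 arrays, against 6.33 and 7.30 on the siNT arrays. Both siLEF1 values lay below the lower quartile of the array, near the bottom of the scale, so that the fold change is only roughly known. The difference was -3.84 ± 0.33 (standard error, limma adjusted p = 0.0288), or 14.3-fold. H2BC11 (HIST1H2BJ) had 2.81 and 3.57 on the siLEF1 arrays, against 6.05 and 6.75 on the siNT arrays, again with a wide gap between the groups. Both siLEF1 values lay under the array median and 1 of them under the lower quartile, so that this fold change too is only roughly known. Its difference was -3.21 ± 0.33 (limma adjusted p = 0.0431), or 9.23-fold. The siNT replicates of these probe sets differed by 0.97 and 0.71, while in 9 of the 14 H2B probe sets they differed by over 1.

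The H2B genes of long span in RefSeq, which are known for polyadenylated transcripts, are H2BC21, H2BC12, H2BC4 and H2BC5, with gene spans of 2224, 8566, 10757 and 13229 bases, whereas the other 6 span 462 to 489. H2BC12 (HIST1H2BK) had the most negative difference of the 14. Its log2 signals read 4.86 and 4.17 on the siLEF1 arrays, against 7.74 and 9.45 on the siNT arrays. The siNT replicates thus stood 1.71 apart, and the difference of -4.08 ± 0.54 (limma adjusted p = 0.0604), or 16.9-fold, did not pass. H2BC5 (HIST1H2BD) was read by 2 probe sets, both open to cross-binding. In the first it had 6.77 and 6.59 on the siLEF1 arrays, against 9.18 and 10.90 on the siNT arrays, and in the second it had 6.62 and 6.68 on the siLEF1 arrays, against 8.85 and 10.48 on the siNT arrays. The probe sets, read on the same arrays, gave differences of -3.36 ± 0.51 and -3.01 ± 0.48 (limma adjusted p = 0.0775 and 0.0829). H2BC21 (HIST2H2BE), the member that lies on chromosome 1 and not on chromosome 6, had 5.26 and 5.24 on the siLEF1 arrays, against 7.24 and 9.01 on the siNT arrays. It combined siLEF1 replicates only 0.02 apart with siNT replicates 1.77 apart, the widest gap of the 14, and its difference was -2.88 ± 0.52 (limma adjusted p = 0.0963). H2BC4 (HIST1H2BC) had 4.36 and 3.93 on the siLEF1 arrays, against 5.55 and 6.10 on the siNT arrays. With -1.68 ± 0.24 (limma adjusted p = 0.0734) it had a smaller difference than the other 3 genes of long span.

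Among genes of short span, H2BC9 (HIST1H2BH), read by a probe set open to cross-binding, had 4.46 and 4.26 on the siLEF1 arrays, against 6.66 and 8.24 on the siNT arrays. Its difference was -3.09 ± 0.47 (limma adjusted p = 0.0775). H2BC14 (HIST1H2BM) had 3.51 and 2.87 on the siLEF1 arrays, against 3.96 and 5.15 on the siNT arrays. There the lowest siNT value was close to the highest siLEF1 value, siNT replicate 1 lay under the median of its array, and the difference was -1.36 ± 0.41 (limma adjusted p = 0.206). In the probe sets that named 1 gene, genes of long span thus ran from -4.08 to -1.68 and genes of short span from -3.84 to -1.36.

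The other probe sets read several H2B genes at once. Of these, 3 were shared by H2BC4, H2BC6, H2BC7, H2BC8 and H2BC10, the genes of identical protein. The one not marked as open to cross-binding had 3.99 and 4.54 on the siLEF1 arrays, against 6.65 and 7.69 on the siNT arrays, with a difference of -2.90 ± 0.36 (limma adjusted p = 0.0562), the smallest adjusted p outside the called pair. In the next the signals were 6.13 and 5.58 on the siLEF1 arrays, against 7.75 and 9.18 on the siNT arrays, and in the last they were 6.71 and 6.34 on the siLEF1 arrays, against 8.09 and 9.70 on the siNT arrays. These gave -2.62 ± 0.45 and -2.37 ± 0.49 (limma adjusted p = 0.0926 and 0.119), so the 3 probe sets for the same genes lay within 0.53 of each other. The other 2 were shared by H2BC8 and H2BC11 and had the smallest differences of the 14. In the one whose ID ends in _s_at the signals were 3.75 and 4.13 on the siLEF1 arrays, against 4.69 and 5.15 on the siNT arrays, with a difference of -0.98 ± 0.22 (limma adjusted p = 0.138). In the other they were 2.67 and 2.17 on the siLEF1 arrays, against 2.95 and 3.15 on the siNT arrays, with a difference of -0.63 ± 0.21 (limma adjusted p = 0.24). There all 4 arrays lay under the lower quartile, and H2BC11 itself had -3.21 in its own probe set.

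**Figure D3:**
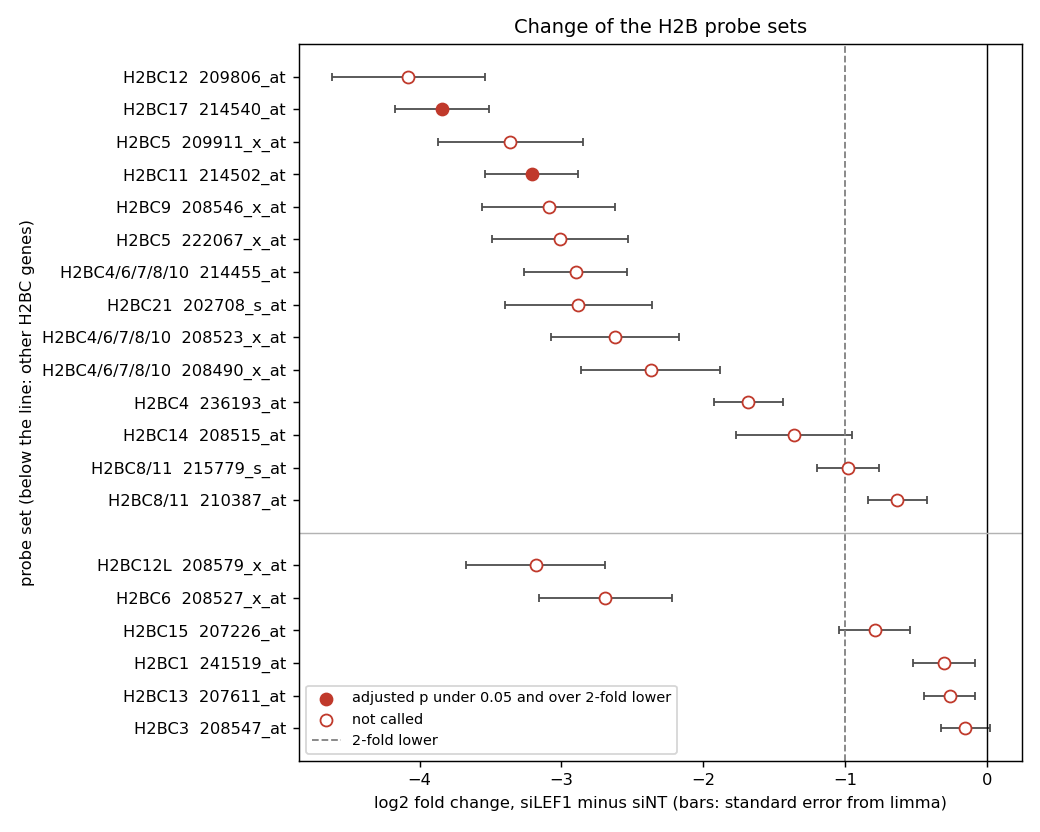
Log2 fold change, siLEF1 minus siNT (horizontal axis), with its standard error from limma, of the 14 H2B probe sets and, under the line, of the 6 probe sets of other H2BC genes. The called probe sets of H2BC17 and H2BC11, drawn filled, have standard errors of 0.33, and open points run from -4.08 for H2BC12 to -0.15 for H2BC3.

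The size of the difference differed between the siNT arrays. In 14 of the 14 probe sets siNT replicate 2 was higher than siNT replicate 1, as it was in 51.2% of all probe sets, with a median gap of 1.31 against 0.01 over all probe sets. In 9 of the 14 the gap was over 2-fold, as in 0.831% of all. The siLEF1 replicates differed by at most 0.76, with replicate 2 higher in 5 of the 14. Against siNT replicate 1 alone, the array closer to the siLEF1 arrays, the median difference was -2.09 and 11 of the 14 were over 2-fold lower (1.72% of all probe sets). The largest in size were -3.35 for H2BC17 and -3.22 for H2BC12. Against siNT replicate 2 alone the median was -3.49, and 13 were over 2-fold lower (3.58% of all). The call itself rested on which arrays were used. With siLEF1 replicate 1, siLEF1 replicate 2 or siNT replicate 2 left out limma called 0 of all 54613 probe sets as lower, and so 0 of the 14. At an unadjusted p under 0.05 were 14 of the 14 without siLEF1 replicate 1 (6.75% of all probe sets), 12 without siLEF1 replicate 2 (8.47%) and 12 without siNT replicate 2 (11.4%). With siNT replicate 1 left out it called 11 (2.36% of all tested probe sets). In these fits the lone array is taken to vary like the arrays of the other group. Centring each array on the median of 14 housekeeping genes shifted every log2 fold change by -0.26 and led to 12 calls of the 14 (2.68% of all). It also took the median log2 fold change over all tested probe sets from 0.04 to -0.22. That of the housekeeping genes themselves went from 0.08 to -0.18. An intensity trend with robust eBayes led to 4 calls (0.238%), and a minimum mean log2 signal of 6 to 0 of the 6 probe sets it kept (0.0206%). The replicate number as a block gave 11 calls (1.79%), and 12 (1.4%) with the numbers crossed, although the numbers are not known to pair the arrays.

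**Figure D4:**
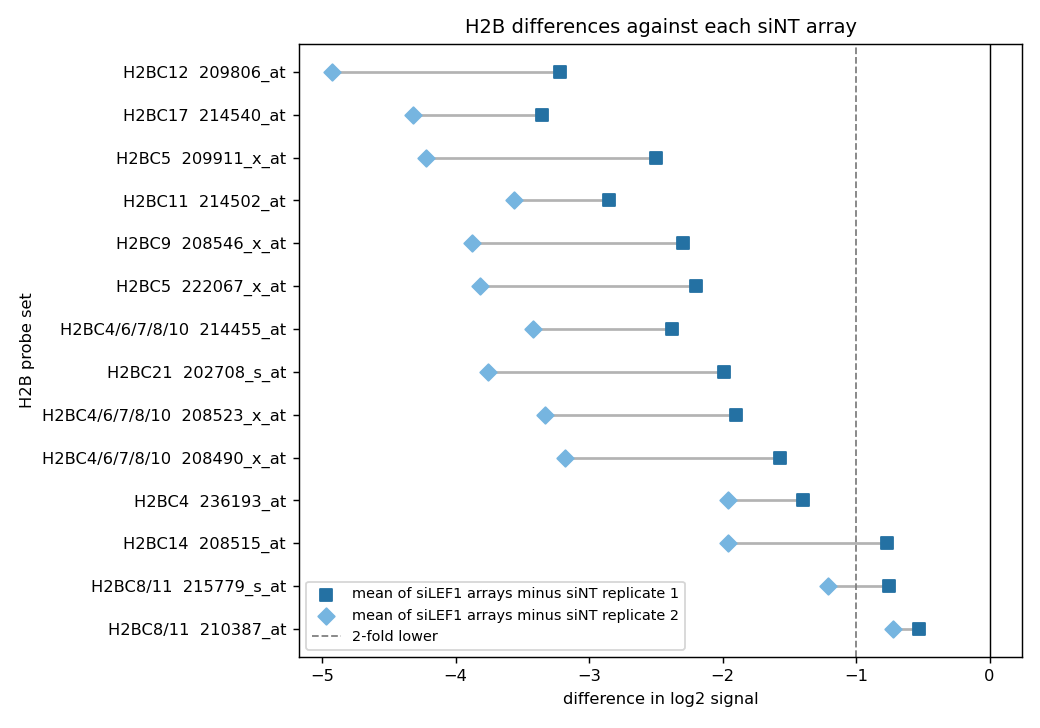
Difference in log2 signal (horizontal axis) between the mean of the siLEF1 arrays and each siNT array alone, for the 14 H2B probe sets. Every point lies under 0, and in every row the difference from siNT replicate 2 is the larger, with medians of -2.09 for siNT replicate 1 and -3.49 for siNT replicate 2.

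Other H2B genes were read by 6 probe sets, and 0 of them were called, where 0.183% of all tested probe sets were called lower. H2BC12L, a gene on chromosome 21 related to H2BC12, had 5.68 and 5.54 on the siLEF1 arrays, against 7.96 and 9.63 on the siNT arrays, with a difference of -3.18 ± 0.49 (limma adjusted p = 0.0814). H2BC6 had 5.13 and 5.62 on the siLEF1 arrays, against 7.30 and 8.83 on the siNT arrays, with a difference of -2.69 ± 0.47 (limma adjusted p = 0.094). Both are probe sets open to cross-binding, and in both siNT replicate 2 was the highest array. H2BC15 had 5.27 and 5.06 on the siLEF1 arrays, against 5.62 and 6.29 on the siNT arrays, with a difference of -0.79 ± 0.25 (limma adjusted p = 0.214). The testis histone gene H2BC1, H2BC13 and H2BC3 had differences of -0.30, -0.26 and -0.15, with adjusted p values of 0.575, 0.54 and 0.722 from limma. Both siLEF1 and both siNT signals of these 3 lay under the array medians. Their last 90 promoter bases had no exact octamer, which 2 of 8 other H2BC promoters had in that stretch, those of H2BC10 and H2BC18, for which no unshared probe set was used. H2BC6, with -2.69, and H2BC17, with -3.84, had no exact octamer in that stretch either. H2BC1 and H2BC3 had one farther out, at positions -104 and -120. In the last 90 bases H2BC3 and H2BC6 had a word with 1 mismatch. That of H2BC3, ATTTGAAT at position -46, is the same word as in H2BC5. H2BC1 and H2BC13 had no such word there, and neither did H2BC7 among the 10 genes. A link between the octamer and the size of the difference was not tested.

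Many H2B genes lie head to head with an H2A gene, with which they share the stretch between the starts. Such a partner was found on the opposite strand within 2000 bases for 7 of the 10 genes, with 223 to 248 bases between the starts. The partner of H2BC4, H2AC6, had 6.57 and 6.50 on the siLEF1 arrays, against 9.98 and 11.47 on the siNT arrays, and its difference of -4.19 ± 0.45 (limma adjusted p = 0.0454) was larger in size than that of H2BC4. The partner of H2BC8, H2AC8, had 2.85 and 2.66 on the siLEF1 arrays, against 4.39 and 5.81 on the siNT arrays, with a difference of -2.34 ± 0.43. For H2AC14, next to H2BC14, the signals were 6.69 and 6.26 on the siLEF1 arrays, against 7.80 and 8.66 on the siNT arrays, with a difference of -1.75 ± 0.30. H2AC17, next to H2BC17, had 4.49 and 4.89 on the siLEF1 arrays, against 5.76 and 7.25 on the siNT arrays, with a difference of -1.81 ± 0.46 (limma adjusted p = 0.163), while H2BC17 had -3.84. Neither H2AC8, H2AC14 nor H2AC17 passed. H2AC11, the partner of H2BC11, was read by 2 probe sets shared with the same other H2A genes, of which 1 was called at -2.46 ± 0.20 (limma adjusted p = 0.0243) and 1 was not, at -1.88 ± 0.36 (limma adjusted p = 0.103).

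Set beside the other histone classes, the H2B median of -2.89 was the most negative, which is a description and not a test. The lists are unlike. The 10 H2B genes were chosen with earlier results of these data known and hold all their probe sets. The 6 probe sets of other H2BC genes, with a median of -0.55, are not among them. The other classes hold the brightest unshared probe set of each listed gene that has one, and probe sets shared within the class. The 13 entries of replication-dependent H2A genes had a median of -1.88 with 5 called lower, and the 9 of H3 genes one of -0.48 with 1. The 14 of H4 genes had one of -0.79 with 3, and the 5 linker histone H1 genes one of -0.39 with 1. Of all tested probe sets, 0.183% were called lower. Each class reached far: the most negative values were -4.19 for H2AC6, -2.86 for a probe set shared by 10 H3 genes, -3.48 for H4C8 and -3.45 for H1-2. Replacement histones, which are made outside S phase as well, had a median of 0.10 over 8 genes and 0 called, with -0.99 for H1-10 (limma adjusted p = 0.0825), -0.35 for MACROH2A2, 0.32 for H2AZ2 and 0.16 for MACROH2A1.

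The factors that transcribe histone genes or trim and degrade their mRNAs had a median of -0.14 over 22 of 24 listed genes. POU2F1, whose product binds the octamer, and NELFE were not read, as neither had an unshared probe set. None of the 22 was called, and 6 of them had an unadjusted p under 0.05 from limma in either direction, against 15.6% of all tested probe sets. The most significant were FIP1L1 (-0.68) and ZNF473 (-0.91), which act in mRNA 3' end formation, HINFP (-0.77), an activator of H4 genes, and LSM11 (0.46), a part of the U7 particle, with adjusted p values of 0.178 to 0.282. Of 12 genes that act in the ubiquitination of H2B or in its removal, 0 were called, and the median was -0.14. Of these 12, 4 had an unadjusted p under 0.05 from limma (15.6% of all probe sets). Among the 12, CDC73 had -0.76, UBE2B -0.57, the ligase gene RNF20 -0.49 and USP44, whose enzyme removes ubiquitin, 0.37.

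Genes of S phase and DNA replication lay on the other side of 0, except that values under 0.26 change sign with the arrays centred on housekeeping genes. The 32 genes had values of 0.02 to 0.84 with a median of 0.38, and in 26 of them both siLEF1 arrays were above both siNT arrays, as in 14980 of the 54613 tested probe sets. None was called, and 9 of the 32 had an unadjusted p under 0.05 from limma (15.6% of all probe sets). TK1 (thymidine kinase) had 8.86 and 8.94 on the siLEF1 arrays, against 8.48 and 7.65 on the siNT arrays, a difference of 0.84 ± 0.28 (limma adjusted p = 0.236). LIG1, POLE and CCNE2 had 0.74, 0.60 and 0.54. In 31 of the 32 genes siNT replicate 2 was the lower siNT array, by a median of 0.50, whereas it was the higher one in 14 of the 14 H2B probe sets. Against siNT replicate 1 alone the S phase median was 0.15. The same centring would turn the median of the replacement histones, 0.10, below 0.

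**Figure D5:**
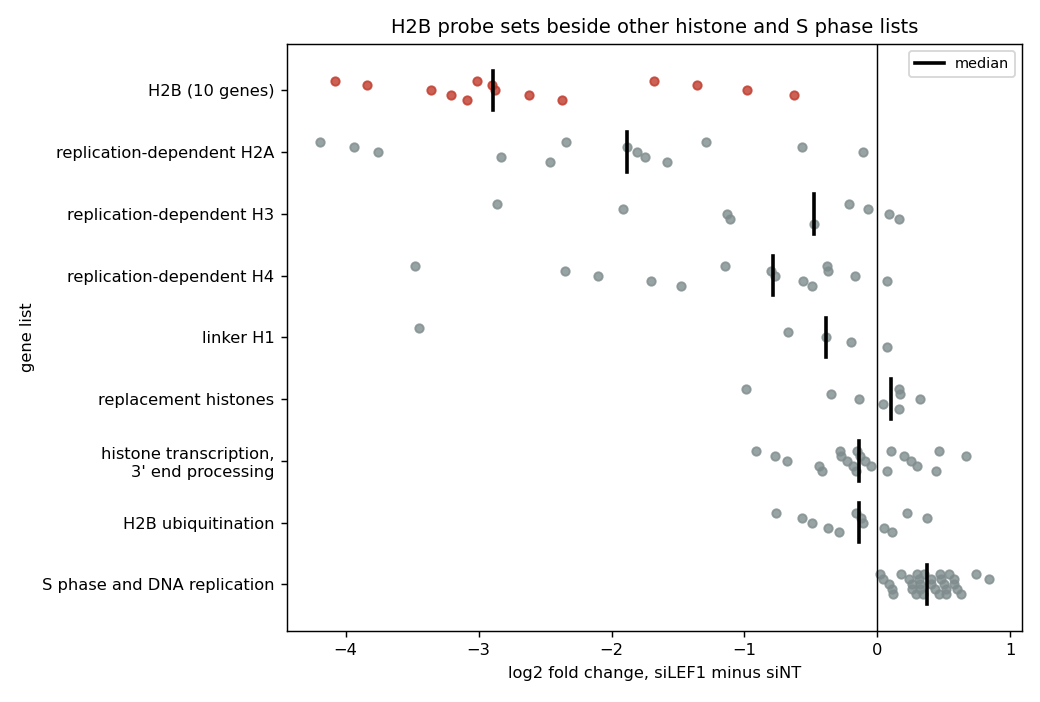
Log2 fold change, siLEF1 minus siNT (horizontal axis), of the H2B probe sets and of the other gene lists, 1 point per probe set, with the median as a bar. The H2B points lie between -4.08 and -0.63, and the S phase points between 0.02 and 0.84, of which those under 0.26 change sign with housekeeping centring.

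The genes whose pattern over the 4 arrays was most like that of H2B were sought among 19714 genes, with histone genes left out by their symbols. Whether a histone gene outside the 10 lay nearer was therefore not looked at. The mean H2B profile, over the 8 genes read by an unshared probe set and centred on 0, was -1.41 and -1.53 on the siLEF1 arrays, against 0.83 and 2.11 on the siNT arrays. By the root mean square difference from this profile the nearest were LOC100272217 (0.06), DDIT3 (0.21), ATF3 (0.23), DUSP8 (0.25) and PHLDA1 (0.25), while the H2B probe sets themselves lay 0.13 (H2BC9) to 1.22 from it. DDIT3, a transcription factor gene induced by cell stress, had 8.33 and 8.22 on the siLEF1 arrays, against 10.33 and 11.35 on the siNT arrays. ATF3, also a transcription factor gene, had 8.06 and 7.89 on the siLEF1 arrays, against 9.73 and 11.53 on the siNT arrays. Of the 5 genes, DUSP8, a phosphatase gene, was called, with a difference of -2.53 ± 0.29 (limma adjusted p = 0.0477). Likeness over 4 arrays is a description and rests on the same siNT gap as the H2B values.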

How the data were processed

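Affymetrix HG-U133 Plus 2.0 arrays of siLEF1 and siNT cells, 2 each, were grouped by the sample labels. The series holds no array of non-transfected cells, so these were not analysed here. The authors processed the arrays with Expression Console (1.1 according to the submitters' notes) and RMA, which left deposited log2 signals, 1 per probe set. Whether other arrays shared the RMA run is not given in the sources used here. RMA holds a quantile step, after which a change common to all genes cannot be seen.

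After removal of 62 control probe sets, siLEF1 minus siNT was fitted for 54613 probe sets by limma (version 3.58.1, R 4.3.3, eBayes, 2-sided tests, 2 residual and 4.3 prior degrees of freedom), with Benjamini-Hochberg adjustment over all of them. The p-values measure the spread between these arrays, whose number limits the precision. The model was checked on simulated data. Symbols were updated by Entrez number (45780 of 45873 found). In other lists the brightest probe set stood for a gene, and histone classes also held shared probe sets. Up to 4 genes with the smallest p were named per list, and the 5 non-histone genes nearest in profile. H2B genes, lists and tests were chosen with earlier results of these data known. Alternatives covered a signal filter, variance models, a block, centring, probe set selection, fold thresholds and each array left out.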

Additional observations from a re-analysis of the deposited data

How the results depend on the processing

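At the chosen thresholds 2 of the 14 H2B probe sets were called lower (0.183% of all), those of H2BC17 and H2BC11, and this count moved with the setting. It was 0 of the 6 probe sets kept above a mean signal of 6 (with 6 of them, and 27.3% of all kept, at an unadjusted p under 0.05 from limma) and 0 by an F test without moderation, which called 0 of all 54613 probe sets (with 5 of the 14, and 8.04% of all, at an unadjusted p under 0.05). It was 4 with an intensity trend and robust eBayes (0.238% of all) and 12 with the arrays centred on housekeeping genes (2.68%). With the replicate number as a block it was 11 (1.79%), and with the numbers crossed, an alternative chosen after seeing the data, 12 (1.4%). The share of all probe sets called lower thus moved with the setting too. The numbers are not known to pair the arrays, and the deviations of same-numbered arrays correlated at -0.155 across probe sets. With each array left out in turn the count ran from 0 to 11, where each fit with 0 called 0 of all probe sets lower, and the median log2 fold change from -3.49 without siNT replicate 1 to -2.09 without siNT replicate 2. The number of arrays, 2 per group, limits the precision.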
